A study of Mus musculus with 24 samples.

Results

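The proliferation and cell division genes described here are 35 genes whose transcripts rise in dividing cells, from the helicase subunits that open DNA for replication to the motors and kinases of mitosis. They were found by their symbols, matched through Ensembl identifiers to the rows of 24 raw count files that each hold 52350 genes. All 35 had a row, 34 of them passed the filter on low counts and were tested among 15294 genes, and Plk1 was left out by that filter. The libraries came from hearts of male C57Bl/6 wild-type mice aged 12 weeks, kept in 12 h of light and 12 h of darkness and habituated to a treadmill. There were 4 groups of 6 mice: sedentary at ZT0 (ZT0-SED), exercised at ZT0 (ZT0-EX), sedentary at ZT12 (ZT12-SED) and exercised at ZT12 (ZT12-EX), where ZT0 opens the rest phase and ZT12 the active phase. Exercised mice ran for 60 min at 10 m/min and 0% grade, and how long after the run the hearts were taken is not stated in the material used here. In each group, replicates 1 to 3 were sequenced on flow cell 1 and replicates 4 to 6 on flow cell 2.

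Cyclins and the kinases they activate drive a cell from growth into DNA replication and then into mitosis. E2F factors switch on replication genes such as the MCM subunits before DNA synthesis, and a later wave under the DREAM and MYB-MuvB complexes with FOXM1 switches on mitotic genes such as Cdk1 and Top2a. Cardiomyocytes of adult mammals divide rarely, so that division in the adult heart is mostly that of endothelial, stromal and immune cells.

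The list divides by role into 7 licensing and helicase genes (Mcm2 to Mcm7 and Cdc6), 3 genes of the replication clamp and nucleotide supply (Pcna, Rrm1 and Rrm2), 7 cyclin, kinase and regulator genes, 8 genes of mitotic kinases, checkpoint and ubiquitin ligase, 8 spindle, kinetochore and midbody genes, and 2 general marks of proliferation (Mki67 and Top2a). Their promoters differ along the same line. Stretches of 150 bases ending at the start site are shown for 3 mitotic genes, which hold the CHR words TTTGAA or TTCGAA that DREAM and MYB-MuvB bind, and for 2 helicase genes, which hold the E2F word TTTGGCGC. They are from RefSeq, with coordinates of its GRCm38.p6 table, and read 5′ to 3′ along the gene. Capitals mark the CHR words, CCAAT, and the E2F words on either strand.
Cdk1 (chr10:69352913-69353062, minus strand): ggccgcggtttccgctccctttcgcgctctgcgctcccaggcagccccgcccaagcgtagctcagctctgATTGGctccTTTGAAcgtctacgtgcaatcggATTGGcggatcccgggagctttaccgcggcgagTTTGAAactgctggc
Top2a (chr11:99024190-99024339, minus strand): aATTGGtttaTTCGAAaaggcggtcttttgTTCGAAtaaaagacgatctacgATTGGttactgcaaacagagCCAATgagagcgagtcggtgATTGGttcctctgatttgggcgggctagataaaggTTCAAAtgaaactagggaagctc
Mki67 (chr7:135716380-135716529, minus strand): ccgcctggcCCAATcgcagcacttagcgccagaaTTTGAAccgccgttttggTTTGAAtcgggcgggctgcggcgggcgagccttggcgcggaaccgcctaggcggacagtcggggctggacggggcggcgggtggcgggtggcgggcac
Mcm5 (chr8:75109359-75109508, plus strand): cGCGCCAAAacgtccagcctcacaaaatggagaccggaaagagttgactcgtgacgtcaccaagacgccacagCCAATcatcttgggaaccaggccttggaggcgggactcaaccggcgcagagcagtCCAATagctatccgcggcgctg
Mcm6 (chr1:128359706-128359855, minus strand): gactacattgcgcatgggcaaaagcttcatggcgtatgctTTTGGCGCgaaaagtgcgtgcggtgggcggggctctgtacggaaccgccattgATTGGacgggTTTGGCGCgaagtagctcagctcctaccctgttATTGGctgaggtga

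Promoter windows of 300 bases (250 before to 50 after the start) were found for 28 of the 35 genes, 30 windows in all. Of the 20 windows of genes outside replication, 15 (75%) held TTTGAA or TTCGAA on either strand, against 2 of 10 windows of replication genes (20%) and 19.2% of 32851 windows over all genes. An E2F word (TTCCCGCC, TTTCCCGC or TTTGGCGC, the first 2 of which can overlap) was in 6 of 10 replication windows (60%), in 0 of the 20 others and in 3.21% of all windows. CCAAT, the word bound by NF-Y, was in 26 of 30 windows (86.7%) and in 37.4% of all windows. A match is a description of the letters, not a bound site.

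Library totals ran from 9697334 to 23067191 counts. A count of 3, taken here as the limit that a count of 0 allows for counting error only, corresponded to 0.13 to 0.575 CPM (counts scaled to a common library size, with TMM factors). The cardiac markers Myh6 (618 to 24398 CPM) and Tnnt2 (2832 to 33195 CPM) were abundant in each library. Transcripts of fast skeletal muscle were abundant in 6 libraries, all of flow cell 2: ZT0-EX 4, 5 and 6 and replicate 6 of each other group. ZT12-SED 1 and 2 and ZT12-EX 4 had the lowest mean correlation with other libraries and are called the 3 that stood apart. Mitochondrially encoded transcripts took 40.7% to 55.1% of counts in ZT12-SED 1 to 3, against 2.70% to 36.6% in all others.

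Most of these genes were expressed at low levels. The 35 genes together held 922 to 4156 counts in a library, or 99.7 to 232 CPM. Per kilobase of the longest annotated transcript, Pcna, the sliding clamp of DNA polymerases that also serves DNA repair, stood highest at 26.1 CPM per kb averaged over 24 libraries. Mcm7 (3.31), Rrm1 (3.12), Mcm6 (2.71), Mcm4 (2.35) and Cenpf (2.05) followed on the same scale. The range over libraries of each of these 5 overlapped that of its neighbour in this order, whereas the lowest Pcna library stood above the highest library of any other gene. Mki67 was at 0.50, Cdk1 at 0.382, and Cenpe lowest at 0.125 CPM per kb. Lengths of the longest transcript are used because the expressed isoforms were not measured.

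**Figure D1:**
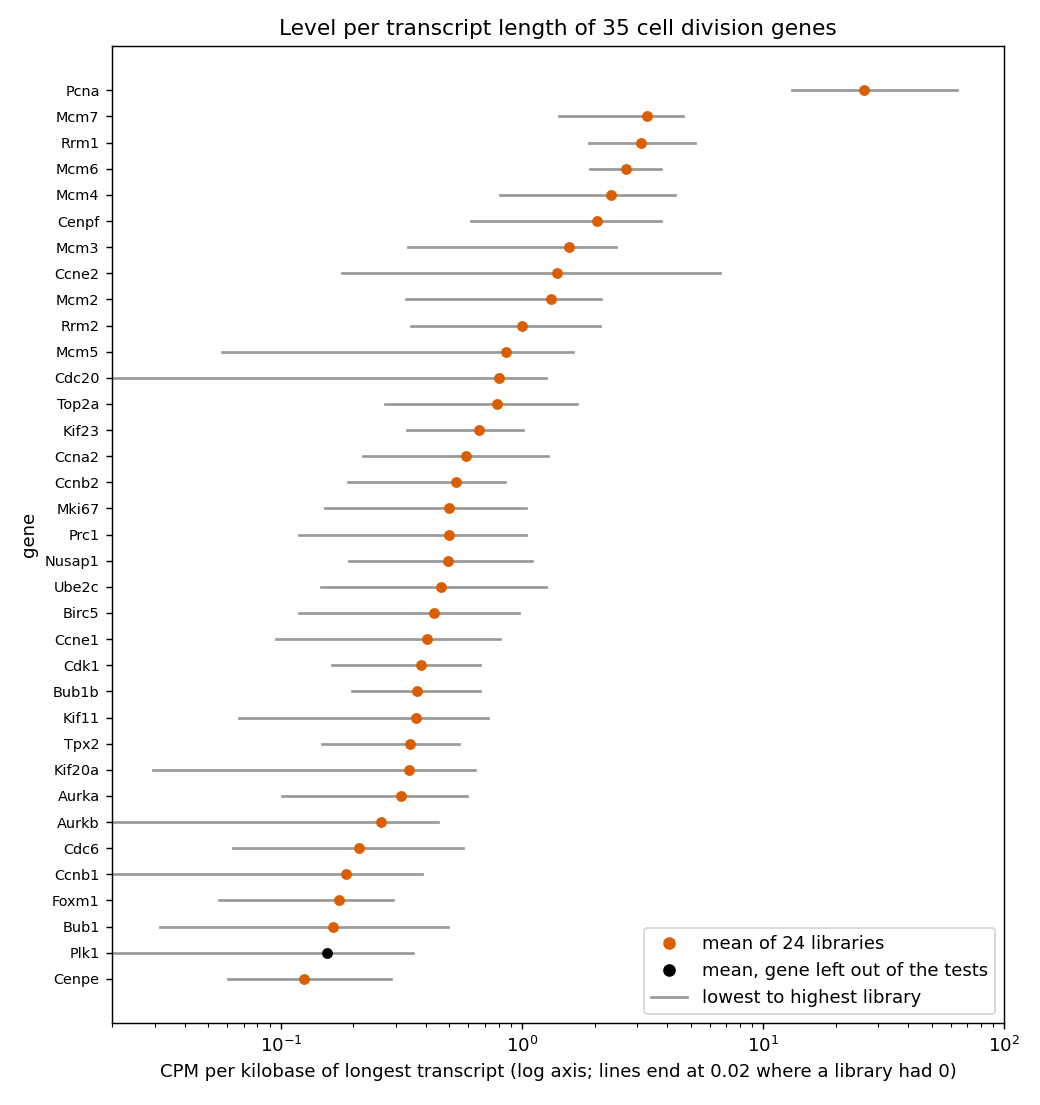
Level of each of the 35 genes in CPM per kilobase of its longest transcript, on a log axis. Points are means of 24 libraries and lines run from the lowest to the highest library; Pcna (26.1) stands apart and Cenpe (0.125) is lowest.

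Several genes were near the limit of detection in some libraries. Plk1, a mitotic kinase, had 144 counts over all 24 libraries, between 0 and 15 in each, and was not tested. Ccnb1 (186 counts in all), Aurkb (213) and Cdc20 (611) each had 0 counts in 1 library, as did Plk1. ZT12-SED 1, the shallowest library, held the zeros of Plk1, Aurkb and Cdc20, where 3 counts equal 0.575 CPM, and ZT0-EX 6 held the zero of Ccnb1, where 3 counts equal 0.162 CPM. The lowest library held 1 count for Mcm5, Ccne1, Aurka and Kif20a, 2 for Bub1 and Foxm1, and 3 for Ccnb2 and Kif11. At the other end, Pcna had at least 185 counts in each library and Rrm1 at least 96.

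Levels of the main marks overlapped across the 4 groups. Mki67 had medians of 4.89 CPM in ZT0-SED, 3.95 in ZT0-EX, 4.02 in ZT12-SED and 5.54 in ZT12-EX, and its lowest (1.53 CPM, 8 counts, ZT12-SED 1) and highest libraries (10.5 CPM, ZT12-EX 2) both came from ZT12 groups. Top2a had medians of 4.22, 3.05, 3.87 and 4.66 CPM in the same order, with its lowest (1.41) and highest (8.79) libraries both in ZT12-EX. Cenpf, a kinetochore protein, ran in the sedentary groups from 11.5 to 28.3 CPM (ZT0) and from 16.8 to 41.7 CPM (ZT12). In the exercised groups it ran from 14.7 to 24.9 CPM (ZT0) and from 6.81 to 41.9 CPM (ZT12). In all 3 genes the ZT12 groups spread wider than the ZT0 groups.

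Among the helicase subunits, Mcm7 had medians of 9.82, 10.3, 8.70 and 10.3 CPM in that order, Mcm4 of 7.44, 7.27, 9.68 and 9.57, and Mcm2 of 4.98, 4.94, 4.10 and 3.96. ZT12-SED was the widest group for Mcm2 (1.15 to 6.73 CPM), Mcm3 (1.15 to 8.40 CPM) and Mcm5 (0.192 to 5.48 CPM), with ZT12-SED 1 lowest in each. The motor Kif23, which builds the central spindle, had medians of 2.18, 2.30, 2.06 and 2.55 CPM, and Bub1b of 1.28, 1.37, 1.28 and 1.18 CPM. Foxm1, the transcription factor of the mitotic wave, had medians from 0.748 to 1.08 CPM, and Ccnb1 from 0.233 to 0.578 CPM, near the value of 3 counts. Summed over the 35 genes, the median was 156 CPM in ZT0-SED, 138 in ZT0-EX, 196 in ZT12-SED and 168 in ZT12-EX. Flow cell 1 (141 to 232 CPM) ran above flow cell 2 (99.7 to 178 CPM) with overlap. In ZT12-SED the sum was 213 to 232 CPM on flow cell 1 and 138 to 178 CPM on flow cell 2. The median of that group lay between these ranges. Pcna alone was 96.9 of the 232 CPM in ZT12-SED 1, the library with the highest sum.

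Some counts cannot be assigned to one gene with certainty, because it is not known whether strand was used in counting. In the GRCm38 annotation, exons of 11 of the 35 genes overlap exons of another gene, among them Ccne2 with Ints8 (1531 against 7674 counts in all), Ccna2 with Exosc9, Cdc20 with Elovl1, Kif20a with Cdc23 and Mcm7 with Cops6 on opposite strands. Ube2c, a ubiquitin-conjugating enzyme of the anaphase-promoting complex, overlaps Tnnc2, the troponin C of fast skeletal muscle. Tnnc2 was at 59.3 to 308 CPM in the 6 libraries with skeletal muscle transcripts and at 1.08 CPM or less in the other 18. Ube2c was at 0.476 to 1.501 CPM (median 0.96) in those 6 libraries, at 0.32 to 2.75 CPM (median 0.809) in the other 18, and at 1.14 to 2.75 CPM (median 1.38) in the 6 of those 18 from flow cell 2. Whether reads of Tnnc2 were counted for Ube2c was not tested. Annotated processed copies also had counts, with 349 for Pcna-ps2 against 15412 for Pcna and 45 for Ccnb2-ps against 335 for Ccnb2.

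The first comparison asked what the treadmill run did to these genes at ZT0. None of the 34 tested genes passed the threshold (adjusted p below 0.05, edgeR quasi-likelihood F test, Benjamini-Hochberg over 15294 genes), where 1.08% of all genes did (0.791% higher and 0.288% lower). At an unadjusted p below 0.05 there were 6 of them (17.6%, against 10.4% of all genes), DESeq2 called 1 gene and limma-voom 0. Still, 30 of the 34 estimates were below 0, against 51.1% of all genes, and their median log2 fold change was -0.31, against -0.01 for all genes tested. Taken by flow cell, as differences of mean log2 CPM, the medians were -0.19 (first) and -0.31 (second). Of the 34 genes, 23 were below 0 on both and 0 above 0 on both, against 5203 and 5538 of all 15294 genes. Without the 6 libraries that held skeletal muscle transcripts, which leaves ZT0-EX with its 3 libraries of flow cell 1, 27 of 34 were below 0 with a median of -0.28. GC content of the transcript had a Spearman correlation of 0.42 with these estimates over the 34 genes and of 0.03 over all genes. By flow cell it was -0.13 (first, all genes -0.06) and 0.61 (second, all genes 0.11). The 10 genes with GC under 45% had medians of -0.22 and -0.70 on the flow cells, and the 11 over 50% had -0.19 and -0.10.

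Cdk1 (ENSMUSG00000019942), the kinase that starts mitosis, came closest to the threshold. Its level in ZT0-SED ran from 1.42 to 2.65 CPM with a median of 2.04, and in ZT0-EX from 0.755 to 1.46 with a median of 1.02. The groups overlapped only between 1.42 and 1.46 CPM. The means were 2.03 ± 0.561 CPM and 1.06 ± 0.258 CPM (SD, n = 6 mice each), from 14 to 51 counts a library. The log2 fold change was -0.89 ± 0.25 (SE, 95% interval -1.41 to -0.37, edgeR adjusted p = 0.104), with both flow cells below 0. Cdk1 was called with DESeq2 (-0.91, adjusted p = 0.0358, 1.75% of all genes called) and when ZT0-SED and ZT0-EX were fitted alone (-0.90, edgeR adjusted p = 0.0187, 2.83% of all genes called). Leaving out 1 library at a time gave edgeR adjusted p from 0.0558 to 0.261.

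Among the replication genes, Mcm6, a subunit of the replicative helicase, was the 1 of 34 genes whose 2 groups did not overlap, where 1.6% of all genes did not. It ran from 11.2 to 13.8 CPM in ZT0-SED (median 11.9) and from 8.33 to 11.1 CPM in ZT0-EX (median 10.2), yet the difference of -0.30 ± 0.14 did not pass (edgeR adjusted p = 0.478). Rrm2, the regulated subunit of ribonucleotide reductase, was at 1.63 to 2.21 CPM in ZT0-SED and at 0.828 to 1.98 CPM in ZT0-EX, with an estimate of -0.58 ± 0.23. Its highest values in ZT0-EX lay within the sedentary range. The remaining helicase subunits had estimates from -0.36 (Mcm5) to 0.02 (Mcm7), and Pcna was at -0.12 ± 0.18.

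Cyclins and mitotic genes leaned the same way without passing. Ccna2, the cyclin of S phase and early mitosis, was at 1.36 to 2.77 CPM in ZT0-SED and 0.647 to 1.98 CPM in ZT0-EX (-0.60 ± 0.26). Birc5 (survivin), a subunit of the chromosomal passenger complex, had means of 1.69 ± 0.766 CPM and 0.929 ± 0.147 CPM (SD, n = 6) and an estimate of -0.85 ± 0.37. Nusap1, a microtubule-binding protein of the spindle, was at -0.64 ± 0.28. These 3 genes, with Cdk1, Rrm2 and Mcm6, are the 6 with an unadjusted p below 0.05, and all their ranges but that of Mcm6 overlapped between the groups. Mki67 (ENSMUSG00000031004), which encodes the Ki-67 antigen, ran from 3.57 to 6.80 CPM in ZT0-SED and from 2.97 to 7.75 CPM in ZT0-EX (-0.24 ± 0.29). Top2a, the topoisomerase that untangles replicated chromosomes, ran from 2.84 to 5.90 and from 1.73 to 5.77 CPM (-0.48 ± 0.30). The highest exercised library stood above the sedentary range for Mki67 and just inside it for Top2a. The 4 estimates above 0 were those of Mcm7, Foxm1, Bub1b and Kif23, none over 0.08. The 95% interval lay within a log2 fold change of 1 in either direction for 20 of the 34 genes, so a larger fall was within the interval for the other 14.

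Genes of the cell cycle outside the list were mostly below 0 too, apart from G1 genes. Of 108 listed, 107 had a row and 89 were tested, of which 0 passed with edgeR, 17 had an unadjusted p below 0.05 and 71 were below 0 (median -0.28). The 27 genes of licensing, forks and nucleotides had a median of -0.34, the 42 of mitosis and cytokinesis also -0.34, and the 20 G1 cyclins, kinases and pocket proteins -0.01, with 10 above and 10 below 0. The smallest p in this list belonged to Hmgb2 (-0.58 ± 0.17, edgeR adjusted p = 0.134), a chromatin protein, and Orc6 (-0.66 ± 0.20), an origin recognition subunit. Markers of other cell types went in different directions between the same groups. The summed level of the 6 lymphocyte markers was 16.9 to 33.2 CPM in ZT0-SED and 8.36 to 13.0 CPM in ZT0-EX, ranges that did not overlap. All 5 lymphocyte markers tested were below 0 (median -1.29) and 0 passed with edgeR, though all 5 had an unadjusted p below 0.05. None of the 6 was at 0 in all libraries, with Cd3e lowest at 0.150 CPM on average. Ighm was highest at 11.7 CPM on average, so the sum is mostly that of Ighm. Of 6 macrophage and monocyte markers all were below 0 in the fit over both flow cells, with a median of -0.29, but by flow cell the medians were 0.06 (first) and -0.62 (second) and 2 of 6 were below 0 on both. Among them Ccr2, a receptor of monocytes, fell by 1.79 (SE 0.24, edgeR adjusted p = 0.00012). Their summed level was 400 to 621 CPM in ZT0-SED and 328 to 544 CPM in ZT0-EX. Of 6 fibroblast markers 5 were below 0 (median -0.31, by flow cell 0.05 and -0.59), and 1 of them, Tcf21, passed (-0.94 ± 0.21, edgeR adjusted p = 0.027). All 3 neutrophil markers tested (median -1.15) and all 5 erythroid markers (median -0.44) were below 0 on both flow cells, and 0 of either passed with edgeR (1 and 0 had an unadjusted p below 0.05). Summed levels in ZT0-SED and ZT0-EX were 883 to 2018 and 630 to 1938 CPM for fibroblast markers. They were 4.22 to 13.2 and 2.23 to 3.99 CPM for neutrophil markers, and 338 to 2501 and 371 to 2413 CPM for erythroid markers. The groups overlapped for fibroblast and erythroid markers, and were apart for the 5 neutrophil markers only by 3.99 against 4.22 CPM. Taken singly, 1.6% of all genes tested did not overlap between these groups. Endothelial markers split evenly, with 3 of 6 below 0 and a median of 0.05. Markers of pericytes and smooth muscle did too (3 of 6, median -0.03). Of 6 cardiomyocyte markers 4 were below 0 (median -0.19). All 7 fast skeletal muscle markers (median 1.81, by flow cell 0.16 and 4.15) and all 4 adipocyte markers tested (median 0.50) were above 0. In each of these lists 0 passed with edgeR. The part of any of these cell types in the values of the cell division genes was not tested. In RNA from whole tissue, fewer cells of a type and less RNA per cell cannot be told apart.

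**Figure D2:**
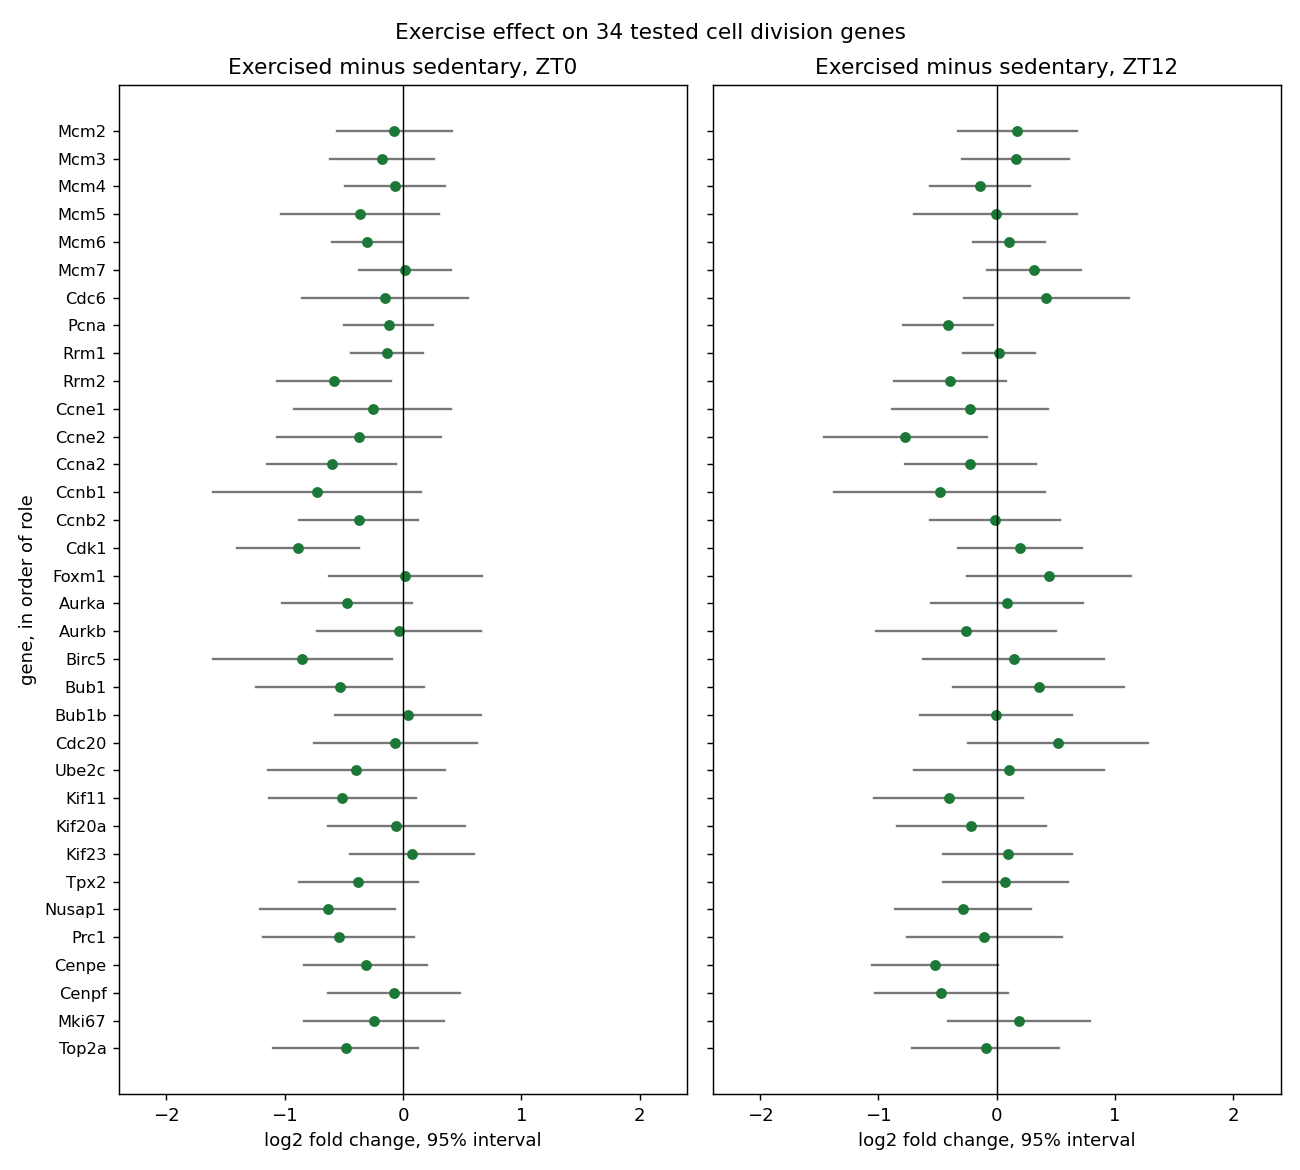
Log2 fold change (point) and 95% interval (line) of exercised against sedentary mice for the 34 tested genes, at ZT0 (left) and ZT12 (right), in order of role. At ZT0, 30 of 34 points lie left of 0, and at ZT12, 18 of 34; no gene passed the threshold in either panel.

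At ZT12, estimates fell on both sides of 0. None of the 34 genes passed with edgeR, where 0.294% of all genes did, and 2 had an unadjusted p below 0.05 (5.88%, against 16.4% of all genes). DESeq2 and limma-voom also called 0. The median was -0.01, with 18 estimates below 0, against 0.06 and 43.9% of all genes. By flow cell the medians were 0.12 (first) and -0.20 (second). The interval lay within a log2 fold change of 1 for 24 genes. These estimates had a Spearman correlation of 0.57 with the GC content of the transcript over the 34 genes and of 0.59 over all genes. By flow cell it was 0.62 (first, all genes 0.66) and 0.41 (second, all genes 0.37). The 11 genes with GC over 50% had medians of 0.53 and -0.08 on the flow cells, and the 10 under 45% had -0.26 and -0.48.

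The largest estimate at ZT12 was that of Ccne2, a cyclin that starts DNA replication, at -0.77 ± 0.33 (edgeR adjusted p = 0.275). It ran from 2.24 to 19.9 CPM in ZT12-SED (median 4.59) and from 0.541 to 7.69 CPM in ZT12-EX (median 3.85), so the groups overlapped. Pcna was at -0.41 ± 0.18, from 32.1 to 96.9 CPM in ZT12-SED and from 20.004 to 63.2 CPM in ZT12-EX. In both genes the top sedentary value came from ZT12-SED 1, and the GC content of their transcripts was 36.3% (Ccne2) and 45.3% (Pcna). Cdk1 was at 0.20 ± 0.25, Mki67 at 0.19 ± 0.29 and Top2a at -0.09 ± 0.30. Of the 89 other cell cycle genes tested, 0 passed with edgeR, 11 had an unadjusted p below 0.05 and 48 were below 0 (median -0.08).

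The difference between the exercise effects at ZT12 and ZT0 was tested directly. None of the 34 genes passed with edgeR, and 0% of all genes did; 1 gene had an unadjusted p below 0.05 (all genes 8.02%), while DESeq2 and limma-voom called 0. That gene was Cdk1, whose effect was higher at ZT12 by 1.09 ± 0.36 (95% interval 0.35 to 1.83, edgeR adjusted p = 0.571). For the 34 genes the median difference was 0.35, with 26 above 0 and 8 below (48.9% of all genes below). On both flow cells 15 were above 0, against 4647 of all 15294 genes. Birc5 was at 1.00 ± 0.52 and Mcm6 at 0.41 ± 0.21, both with intervals that include 0. The interval lay within a log2 fold change of 1 for 13 genes, so the data leave a wide range for the other 21. Of the other cell cycle genes, 0 of 89 passed with edgeR and 7 had an unadjusted p below 0.05, with a median of 0.25.

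**Figure D3:**
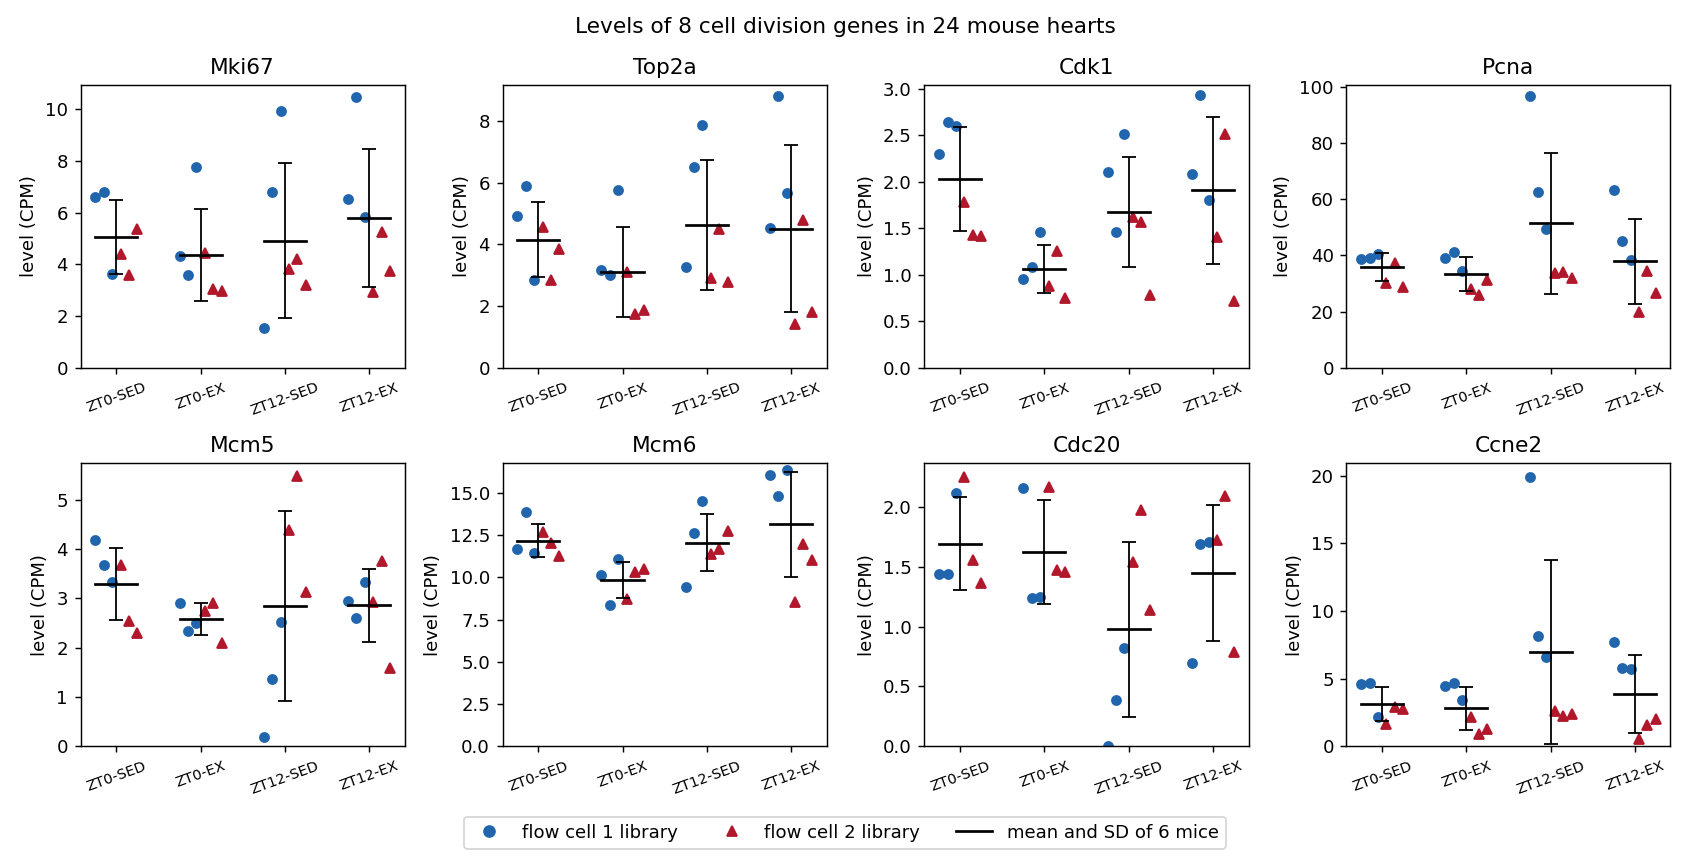
Levels in CPM of 8 genes in each of the 24 libraries, by group. Circles are flow cell 1 and triangles flow cell 2, with the mean and SD of 6 mice; the ZT12-SED libraries of flow cell 1 include the highest Pcna (96.9) and Ccne2 (19.9) values and the lowest Mcm5 (0.192) and Cdc20 (0).

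Time of day was compared first in sedentary mice. None of the 34 genes passed with edgeR (5.2% of all genes did, 2.46% higher and 2.74% lower at ZT12), and 4 had an unadjusted p below 0.05, against 33% of all genes. DESeq2 and limma-voom called 0. The median of ZT12 against ZT0 was -0.01 for these genes and -0.01 for all genes tested, with 19 of 34 below 0. The interval lay within a log2 fold change of 1 for 27 genes.

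Aurka, a kinase of the spindle poles, had the smallest p. It was at 0.605 to 1.13 CPM in ZT0-SED (median 0.854) and at 0.192 to 0.626 CPM in ZT12-SED (median 0.474), from 1 to 19 counts a library. The groups overlapped between 0.605 and 0.626 CPM, and the groups of the other genes overlapped too (1.7% of all genes did not). The estimate was -0.86 ± 0.29 (edgeR adjusted p = 0.0693), and it passed without ZT0-SED 6 (-0.90, adjusted p = 0.0448, 18.2% of all genes called) and without ZT12-EX 4 (-0.85, adjusted p = 0.0335, 21.2% of all genes called). Plk1, not tested, was at 0.181 to 0.780 CPM in ZT0-SED and at 0 to 0.405 CPM in ZT12-SED.

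The flow cells gave different pictures of this comparison. With flow cell 1 alone, 7 of the 34 genes were called by edgeR, where 43.5% of 15071 genes were. Ccne2 (1.496), Rrm2 (1.02) and Pcna (0.77) rose from ZT0 to ZT12 there, and Mcm2 (-0.95), Mcm5 (-1.27), Mcm7 (-0.90) and Cdc20 (-1.70), the activator of the anaphase-promoting complex, fell. On flow cell 2 alone, 0 passed. Replicates 1, 2 and 3 of ZT12-SED, all of flow cell 1, held Pcna at 96.9, 62.5 and 49.3 CPM, Mcm5 at 0.192, 1.36 and 2.52 CPM, and Cdc20 at 0, 0.388 and 0.822 CPM. Replicates 4 to 6 held Pcna at 33.7, 34.02 and 32.1 CPM and Mcm5 at 4.38, 5.48 and 3.13 CPM. So the 3 libraries of one flow cell stood apart from the 3 of the other within a single group.

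GC content moved with this difference. Over the 34 genes, the difference between ZT12-SED and ZT0-SED on flow cell 1 had a Spearman correlation of -0.82 with the GC content of the transcript (all genes -0.80), and on flow cell 2 of 0.13 (all genes -0.06). On flow cell 1 the 11 genes with GC over 50% had a median difference of -0.89 and the 10 genes under 45% of 0.45. On flow cell 2 these medians were -0.04 and -0.12. These correlations run across genes that share libraries, and are given as a description. In the fit over both flow cells, 0 of the 34 genes passed with edgeR either without or with offsets for GC content. The median with offsets was -0.10. Offsets were not fitted on flow cell 1 alone, so the part of GC content in its calls was not tested.

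In exercised mice, more of the estimates lay above 0. None of the 34 genes passed with edgeR (1.65% of all genes did), and 7 had an unadjusted p below 0.05 (20.6%, against 14.3% of all genes). DESeq2 called 2, Mcm6 (0.42, adjusted p = 0.0374) and Cdk1 (0.85, adjusted p = 0.0453), where it called 3.5% of all genes, and limma-voom called 0. The median was 0.26, against 0.02 for all genes, and 28 of 34 were above 0. By flow cell the medians were 0.38 (first) and 0.06 (second), and the interval lay within a log2 fold change of 1 for 22 genes. GC content moved with these differences on flow cell 1, with a Spearman correlation of -0.63 over the 34 genes (all genes -0.66), a median of 0.54 for the 10 genes with GC under 45% and of -0.01 for the 11 over 50%. On flow cell 2 the correlation was -0.04 (all genes 0.18).

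Cdk1 ran from 0.714 to 2.93 CPM in ZT12-EX (median 1.94), against 0.755 to 1.46 CPM in ZT0-EX, with an estimate of 0.82 ± 0.25 (edgeR adjusted p = 0.11). Mcm6 ran from 8.54 to 16.4 CPM (median 13.4), against 8.33 to 11.1 CPM, with an estimate of 0.40 ± 0.15. Both ranges overlapped at the low end, as did the ranges of the other 32 genes (1.1% of all genes did not), where the lowest ZT12-EX value came from replicate 6 for Cdk1 and replicate 4 for Mcm6. Rrm2 was at 0.71 ± 0.24, Cdc6, which loads the helicase, at 0.83 ± 0.33, Bub1, a checkpoint kinase, at 0.82 ± 0.34 and Birc5 at 0.80 ± 0.37. This comparison uses the same ZT0-EX libraries as the exercise comparison at ZT0. Without ZT12-EX 4, edgeR called Mcm6 (0.49) and Rrm2 (0.84), with 2.94% of all genes called, and without ZT12-EX 6 it called Cdk1 (0.98), with 2.52%. With 2 surrogate variables it called Mcm6 (0.43), with 4.62% of all genes called. Without the 3 libraries that stood apart it called Mcm6 (0.48), Rrm1 (0.42) and Rrm2 (0.84), with 6.49% of all genes called.

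Few other cell cycle genes passed the threshold by time of day. In sedentary mice 2 of 89 passed with edgeR, where 5.2% of all genes did. An unadjusted p below 0.05 was found for 24 of the 89 (27%, against 33% of all genes) and for 11 of the 20 G1 genes (55%). E2f4, a repressive E2F factor, fell by 0.82 (SE 0.21, edgeR adjusted p = 0.0253). Pole, the catalytic subunit of DNA polymerase epsilon, rose by 0.77 (SE 0.23, adjusted p = 0.0488). On flow cell 1 the differences of this comparison moved with GC content over all genes, as given above. In exercised mice 0 of 89 passed with edgeR, where 1.65% of all genes did. Of the 89, 16 had an unadjusted p below 0.05 (18%, against 14.3% of all genes), and 70 were above 0 (median 0.26). Prim1, a primase subunit, came closest there (0.56 ± 0.17, adjusted p = 0.116).

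The flow cell was the variable with which these genes differed most. Adjusted for group, 23 of the 34 passed between flow cell 2 and flow cell 1 (edgeR), as did 68.1% of all genes, so the count of 23 is near the background. By direction, 34.1% of all genes were higher and 34% lower on flow cell 2. On flow cell 2, 5 genes were higher (Mcm2, Mcm3, Mcm7, Ccnb2 and Ube2c) and 18 lower. All 3 clamp and nucleotide genes were lower, as were 6 of the 8 spindle, kinetochore and midbody genes and both proliferation marks. The median of the 34 genes was -0.46, against -0.02 for all genes tested.

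Ccne2 was lower on flow cell 2 by the widest margin, at -1.64 ± 0.24 (edgeR adjusted p = 5.32e-06), followed by Ccnb1 (-1.36 ± 0.31), the mitotic cyclin B1, and Bub1 (-1.28 ± 0.25). Mki67 was at -0.65 ± 0.21, Top2a at -0.78 ± 0.21, Pcna at -0.66 ± 0.13 and Cdk1 at -0.54 ± 0.18. Higher on flow cell 2 were Ube2c (0.74 ± 0.27), Ccnb2 (0.62 ± 0.18), a second B-type cyclin, and Mcm2 (0.50 ± 0.17). For each of the 23 genes the ranges of the 12 libraries of either flow cell overlapped. The share of all genes that overlapped in this way was not counted.

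This difference moved with GC content. Of the 10 genes with transcript GC under 45%, 9 were lower on flow cell 2 and 0 higher, with a median of -0.70. Of the 11 with GC over 50%, 4 were higher and 0 lower, with a median of 0.40. Over the 34 genes, GC content and the flow cell difference had Pearson r = 0.85 and Spearman rho = 0.80, against 0.73 and 0.81 over 15288 genes tested with a GC value, which describes the same libraries. The helicase subunits show it within 1 complex: Mcm4 (GC 45.5%) was lower by 0.63 on the log2 scale, while Mcm2 (51.7%), Mcm3 (52.6%) and Mcm7 (53.4%) were higher by 0.50, 0.40 and 0.44. Mcm5 (51.9%) and Mcm6 (47.3%), also subunits of this complex, did not pass. Leaving out 1 library at a time gave them 0.08 to 0.31 and -0.20 to -0.12. With offsets for GC content, 8 of the 34 genes passed, where 38.4% of all genes did. Of these, 6 (Cdc6, Pcna, Ccne2, Ccna2, Ccnb1 and Ccnb2) had passed in the same direction without offsets, Rrm1 passed in the opposite direction (0.24, edgeR adjusted p = 0.0238) and Aurkb passed only with offsets (-0.61, adjusted p = 0.0459). The estimates of Mcm7, Ube2c and Kif11 also changed sign. With library totals in place of TMM 12 passed, where 57.8% of all genes did, 11 of them among the 23, and Mki67, Top2a and Cdk1 did not. Without the 6 libraries that held skeletal muscle transcripts 16 passed, where 64.5% of all genes did: 9 genes no longer passed, among them Mki67 (-0.66, adjusted p = 0.0577), Top2a (-0.62, adjusted p = 0.064) and Cdk1 (-0.37, adjusted p = 0.11), while Birc5 and Cdc20 did, both higher on flow cell 2.

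**Figure D4:**
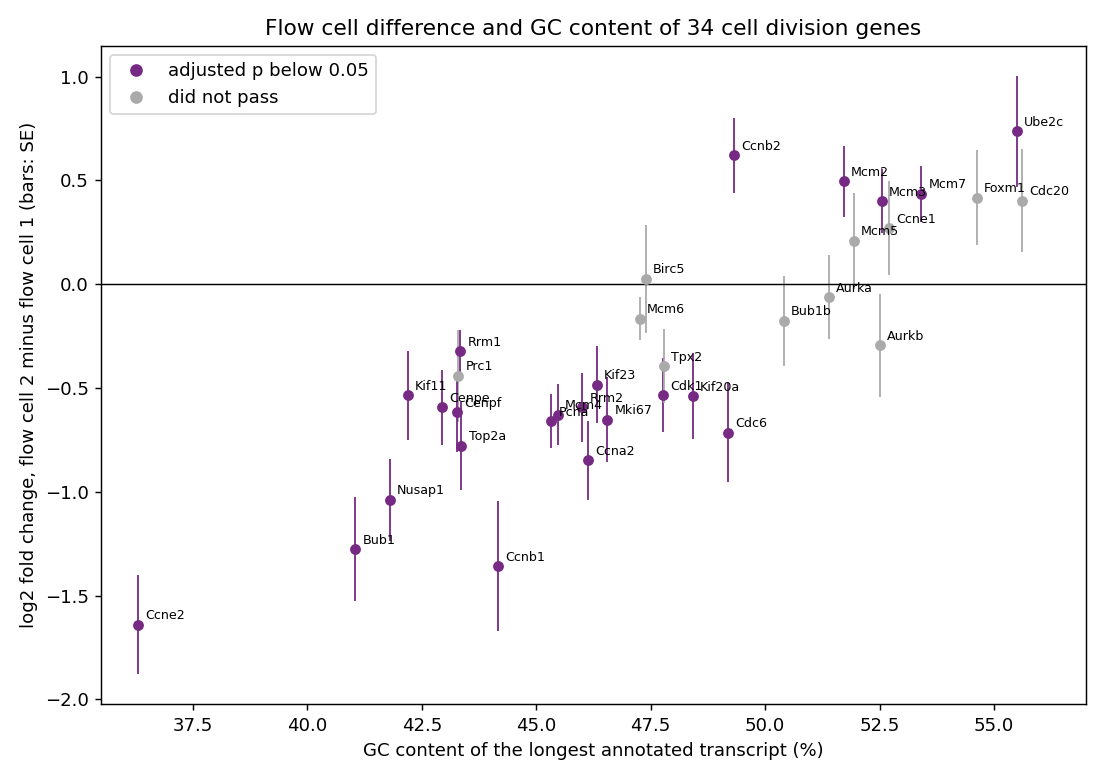
Log2 fold change of flow cell 2 against flow cell 1 (with SE) for the 34 tested genes, against the GC content of the longest transcript in percent. Purple genes passed the threshold; Ccne2 (-1.64) is at the low-GC end and Ube2c (0.74) at the high-GC end.

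With group and flow cell means removed, many of these genes varied together over the 24 libraries. Of 561 pairs, 80.9% had a Pearson r above 0, with a median of 0.26, against 50.7% and 0.01 for pairs of all genes tested. These values describe residuals that share library and GC composition, and carry no test. The 8 spindle, kinetochore and midbody genes had the highest median pair r of the roles with more than 3 genes, at 0.55, and Mki67 and Top2a had r = 0.82 with each other. Top2a had r = 0.84 with Prc1, the midzone crosslinker of cytokinesis, and r = 0.83 with Bub1b, a checkpoint kinase. Without the 3 libraries that stood apart these values were 0.87, 0.77 and 0.82. Genes outside the list stood closer to Mki67 than Top2a did, with r up to 0.93 over 24 libraries. Of 33 listed genes compared with Mki67, 4 were among the 152 genes (1% of those tested) most correlated with it.

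Replication genes split into blocks. Mcm3 and Mcm5 had r = 0.93, and Mcm5 and Cdc20 r = 0.92, which were 0.67 and 0.69 without those 3 libraries. Mcm4 went with Rrm1, the large subunit of ribonucleotide reductase, at r = 0.93 (0.86 without them). Pcna had r = -0.60 with Mcm5 and 0.74 with Ccne2, which were 0.02 and 0.39 without them. Pcna and Mki67 had r = -0.35 (-0.03 without them), whereas Cdk1 and Birc5 had r = 0.66 (0.77 without them).

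**Figure D5:**
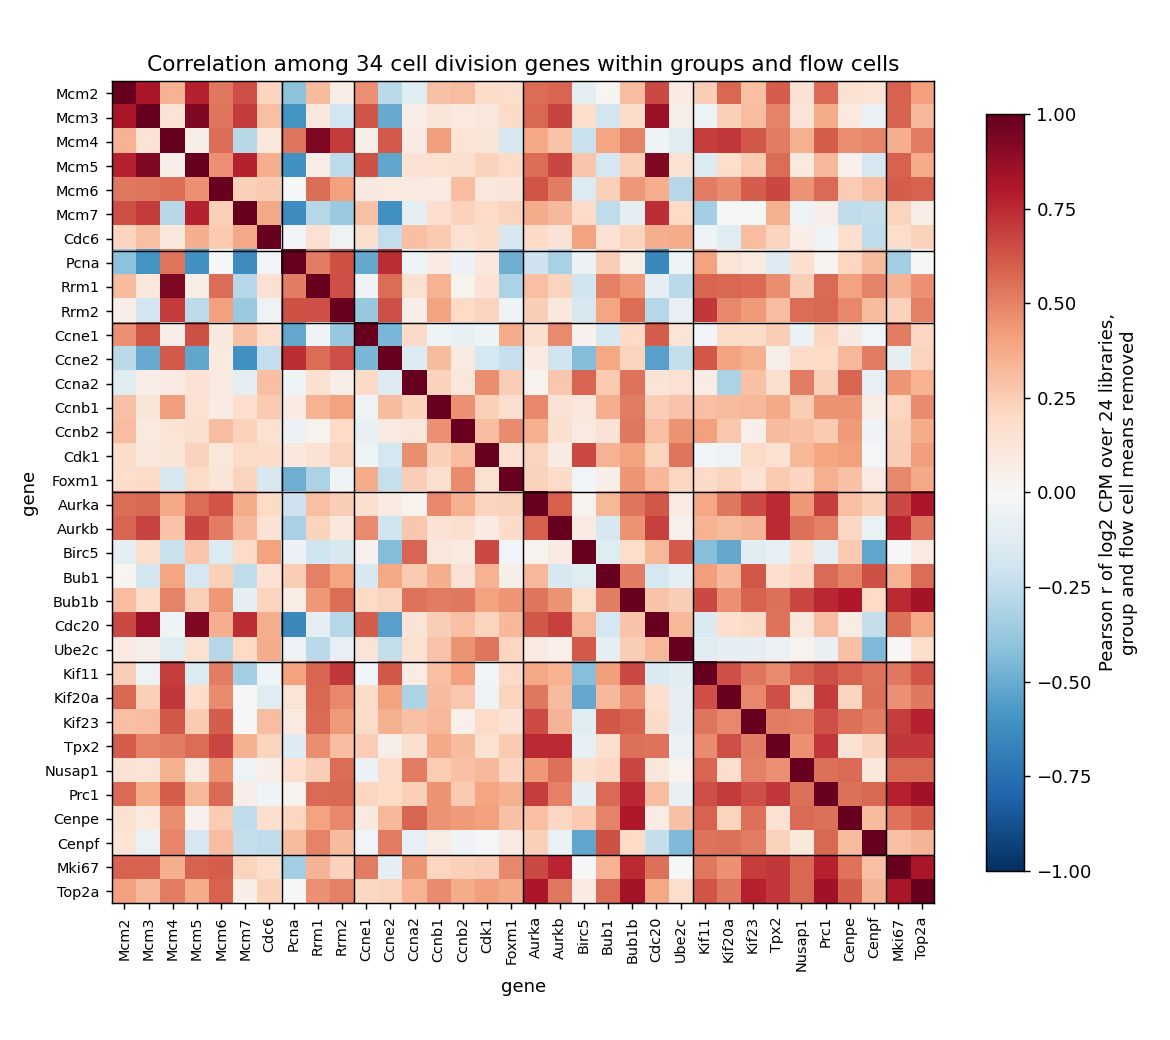
Pearson r between the 34 tested genes over 24 libraries, after group and flow cell means of log2 CPM were removed; black lines separate the roles. The block of spindle genes with Mki67 and Top2a (median r of spindle pairs 0.55) is red, and Pcna is blue against Mcm5 (-0.60).

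Over all 24 libraries, the residuals of the mean of the helicase genes had r = 0.80 with the mean of 6 endothelial markers and r = 0.69 with that of 6 macrophage and monocyte markers. These values depended on the libraries that stood apart: without ZT12-SED 1, whose helicase mean was the lowest, they were 0.59 and 0.41, and without all 3 they were 0.26 and 0.38. For the mean of 17 mitotic genes, r with the endothelial markers was 0.45 over 24 libraries and -0.21 without the 3, and with the macrophage and monocyte markers 0.46 and 0.45. With the fibroblast markers it was 0.38 and 0.35, and with those of fast skeletal muscle -0.24 and -0.43. The part of cell makeup in these values was not tested.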

How the data were processed

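Poly-A-selected RNA of 24 mouse hearts was sequenced as TruSeq libraries, per the labels. The deposited values are whole-number counts per Ensembl gene without normalization. Per the submitters' processing notes the authors used Trimmomatic 0.39, HISAT2 2.2.1, featureCounts 2.0.1 and the GRCm39 build. No source used here states the settings, annotation release or strand use. Totals ranged from 9697334 to 23067191 counts. Floors from counts cover counting error only. The 95% intervals of log2 fold changes come from the fitted models and include the spread between libraries.

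Genes were kept by filterByExpr (15294), scaled by TMM and tested in edgeR 4.0.16 (R 4.3.3) with robust quasi-likelihood models on all 24 libraries, modelling group and flow cell, and p-values were adjusted over all genes (threshold 0.05). The labels call the libraries biological replicates, 6 per group. Each of the 35 genes could be named, with its values or within the counts of its role, and of other cell cycle genes and markers at most the 4 with the smallest p per comparison. The members and lists were chosen with earlier results of these data known. Levels are TMM-scaled CPM. Flow cell differences are of mean log2 CPM (prior count 2). Log2 residuals for correlations had group and flow cell means removed. The alternatives were other scalings and filters, DESeq2 1.42.0, limma-voom 3.58.1, sva 3.50.0, GC offsets (spline with 6 degrees of freedom), a replicate block, single flow cells, the compared groups alone, and leaving out libraries. The scripts were tested on simulated data. Symbols, transcript lengths, GC content and exon overlaps came from an annotation of GRCm38 matched by identifier. Lin54 was not matched and is not analysed here.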

Additional observations from a re-analysis of the deposited data

Results flagged for a closer look

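Among 136 sets of 6 libraries (34 genes in 4 groups), 8 had a library whose gap to its neighbour took more of the range than Dixon's critical share for 6 values on the log2 scale, where about 1 in 20, or 6.8, would be marked by chance. They are given as values. In ZT12-EX 4, Kif11 was at 0.324 CPM (3 counts) and Kif20a at 0.108 CPM (1 count), both the lowest of their group. This library had the fewest counts in the 35 genes (922) and a mitochondrial share of 2.70%. In ZT0-SED 2, Bub1 was highest at 1.08 CPM (18 counts) and Aurkb lowest at 0.421 CPM (7 counts). Foxm1 was lowest in ZT0-EX 2 at 0.259 CPM (5 counts). Birc5 was highest in ZT0-EX 1 at 1.22 CPM (23 counts), still within the range of ZT0-SED. Rrm1 was lowest in ZT0-EX 6 at 11.3 CPM (209 counts), and Bub1b was highest in ZT12-SED 3 at 2.47 CPM (48 counts).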

How the results depend on the processing

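The count of genes past the threshold stayed at 0 under all 16 alternatives for exercise at ZT12 and all 15 for the difference of exercise effects. For exercise at ZT0 it was 1 (Cdk1) with DESeq2, with the replicate block and with the compared groups alone, and 0 under the other 13. For ZT12 against ZT0 in sedentary mice it was 7 on flow cell 1 alone and 0 under the other 15. For the same comparison in exercised mice it was 2 with DESeq2, 1 (Mcm6) with 2 surrogate variables, 3 without the 3 libraries that stood apart (an alternative chosen after seeing the data) and 0 under the other 13. Leaving out 1 library at a time gave 0 to 0 for exercise at ZT0, exercise at ZT12 and their difference, 0 to 1 in sedentary mice by time of day, 0 to 2 in exercised mice and 21 to 25 for the flow cell. The flow cell count was 12 with library totals and 8 with GC offsets. It was 16 without the 6 libraries with skeletal muscle transcripts, where 9 genes lost their call, both proliferation marks among them, and 2 gained one. With GC offsets the flow cell difference changed sign in Mcm7 (-0.055), Rrm1 (0.24), Ube2c (-0.023) and Kif11 (0.088). The cause of these changes was not tested.

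The replicate block gave Cdk1 at ZT0 as -0.93 (edgeR adjusted p = 0.0495, 1.05% of all genes called) and 0 genes in the other 4 comparisons. Same-numbered libraries had a mean residual correlation of -0.05 and only 4 of 24 correlated best with their own number, so the numbers were not taken as pairs. Library totals moved the median of all genes to 0.20 for exercise at ZT12, to 0.12 for the difference, to -0.18 by time in sedentary mice and to 0.25 for the flow cell. At ZT0, 26 to 32 estimates were below 0 under the alternatives (the strict filter tested fewer genes), and 28 to 33 when leaving out a library. Depth limits genes such as Plk1, Ccnb1, Bub1 and Aurkb, with medians of 5 to 9 counts a library.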
